A study of Rattus norvegicus with 6 samples.

Results

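The CpG sites described here are very deeply covered positions of a pair of reduced representation bisulfite sequencing (RRBS) libraries made from rat hippocampus. A site is a single cytosine followed by guanine, and it was included when it was listed in both libraries, lay outside the mitochondrial genome, and had 1000 or more reads, methylated and unmethylated together, in either library. A 10 kb window of chromosome 1 from 13.5 Mb, which holds 182 further sites of this depth, was left out. These criteria chose 816 sites of the 1214971 nuclear CpG sites listed in both libraries, or 0.0672%. The sites were chosen by their coverage, so depth and the ratio of depths are given as descriptions, with no test. Methylation level was not used in the choice.

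Both libraries came from Sprague-Dawley rats labelled as 7 weeks of age. Treatment was benzo[a]pyrene (B[a]P), which is formed in combustion and belongs to the polycyclic aromatic hydrocarbons, daily by oral gavage at 2.0 mg/kg in corn oil, and the control was the same volume of corn oil without it. The labels give a gavage time, 7 weeks, beside the RNA-Seq libraries of the series but not beside these. There was 1 RRBS library per group, so nothing below has a replicate check, and every comparison is between the B[a]P library and the control library and not between the treatments. The labels do not say how many animals gave the tissue of a library.

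RRBS cuts DNA with a restriction enzyme at CpG-containing sites, keeps the short fragments and treats them with bisulfite, which converts unmethylated cytosine to uracil and leaves 5-methylcytosine in place. The same fragments are read in every library, and where several copies of a repeated sequence align to 1 place their reads add up there. In mammalian genomes CpG methylation is high over most of the sequence and low in CpG islands, and copies of a repeated family, such as the ribosomal RNA genes, can differ in methylation, so that a level measured there is a mean over copies. No genome or annotation of the files' build was used here, so positions carry no gene, exon or repeat name, no sequence is shown, and the origin of the depth was not tested. Positions are given as in the start column of the deposited tables, on rn5.

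Each library listed its cytosines at 10 reads or more, with 1441423 CpG sites at a median of 47 reads in the B[a]P library and 1251142 at a median of 72 reads in the control library. The 816 deep sites had a median of 1162 reads in the B[a]P library (272 to 21058) and 1483 reads in the control library (19 to 28746). Both libraries reached 1000 reads at 398 sites, the B[a]P library alone at 136 and the control library alone at 282. The deep sites took 1.93% of all nuclear CpG reads in the B[a]P library and 2.37% in the control library. No nuclear CpG site with 1000 reads in a library was missing from the other. At the edge of the threshold, the 74 sites whose higher coverage was less than 50 reads above 1000 had median levels of 0.676% in the B[a]P library and 0.877% in the control library, and the 48 sites up to 50 reads below it had 1.46% in the B[a]P library and 2.43% in the control library.

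The deep sites lay in a few short stretches. Joined wherever neighbours were within 500 bp, they formed 81 clusters that together spanned 9793 bp. A cluster held a median of 7 sites and at most 51. The 30 clusters of 10 or more sites held 601 sites, 73.7% of the total, and 13 clusters were a lone site. Clusters of 2 or more sites spanned a median of 100 bp, from 8 to 1286 bp. Reads were even among the deep sites of most such clusters. The lowest deep site had at least 90% of the reads of the highest in 44 of 68 in the B[a]P library and in 41 of 68 in the control library. The rule removed shallower sites of the same spans, so this does not describe a stretch as a whole.

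Other CpG sites around and within the clusters were far shallower, which the rule partly fixes, since a deep site within 500 bp would have joined the cluster. In the 500 bp on either side, 76 clusters had other CpG sites, 1950 in all, and the median over clusters of their median coverage was 65.8 reads in the B[a]P library and 72 reads in the control library. Within the spans themselves, 496 further CpG sites in 45 clusters fell short of the threshold, with medians of 102 reads in the B[a]P library and 126 reads in the control library. A site is 1 cytosine, so the counts in and beside the spans include the opposite strand of deep CpGs. As described below, 295 pairs of opposite cytosines had a deep site on 1 strand only.

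Clusters were present on 18 of 21 chromosomes, unevenly. Chromosome 9 held 130 sites in 11 clusters, chromosome 1 held 120 in 10, chromosome 20 held 112 in 7 and chromosome 13 held 99 in 8. Relative to the CpG sites measured, chromosome 20 had 284 deep sites per 100000, chromosome 13 had 273, chromosome 9 had 265, and chromosome 3 had 3.29. When clusters within 1 Mb were grouped into loci, 15 of these held 46 of the 81 clusters and 603 of the 816 sites. The loci with the most clusters were 6 clusters over 555.5 kb at chr20:6854860-7410374 and 6 clusters over 391 kb at chr9:10997355-11388234. A locus of 4 clusters lay at chr9:7321533-7457425, another within 4.82 kb at chr13:94070976-94075796, and another at chr14:46742454-46834706.

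The 10 clusters with the most sites show what these stretches are like. The largest, at chr1:13499480-13499955, ends just before the window that was left out and held 51 sites. It had the 10 deepest sites by the higher coverage of both libraries, here that of the control library. Position 13499865 led them, with 7548 reads in the B[a]P library and 28746 reads in the control library. The summed level of the cluster was 7.95% in the B[a]P library and 8.72% in the control library. Clusters of 32 sites lay at chr13:95679177-95680462 (2.32% in the B[a]P library, 2.38% in the control library) and chr13:94070976-94071111 (1.06% and 1.25%). The 29 sites at chr9:7456860-7457425 had levels of 2.16% and 1.45%.

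The fifth was the only 1 of these 10 that was highly methylated: the 27 sites at chr2:211292861-211293153 had a summed level of 92.7% in the B[a]P library and 92.4% in the control library. Clusters of 26 sites at chr20:6997048-6997221 (0.649% and 0.835%) and chr20:6854860-6855044 (0.908% and 1.14%), 25 sites at chr9:1392051-1392371 (4.46% and 2.79%) and 24 sites at chr4:142116405-142116461 (1.01% and 1.02%) were nearly unmethylated in both libraries. The last, 24 sites at chr19:67048277-67048584, stood at 18.5% in the B[a]P library and 7.60% in the control library and is described below.

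Across all 816 sites the median level was 4.26% in the B[a]P library (quartiles 0.664% and 31.6%) and 3.29% in the control library (0.648% and 39.6%). Levels spread over the whole range, and clusters were sorted by level into 3 kinds. In 30 clusters with 440 sites the summed level was under 5% in both libraries, in 28 clusters with 144 sites it was 80% or more in both, and the other 23 clusters, with 232 sites, lay between. The unmethylated clusters held more sites, with a median of 14, and the highly methylated ones fewer, with a median of 3.

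**Figure D1:**
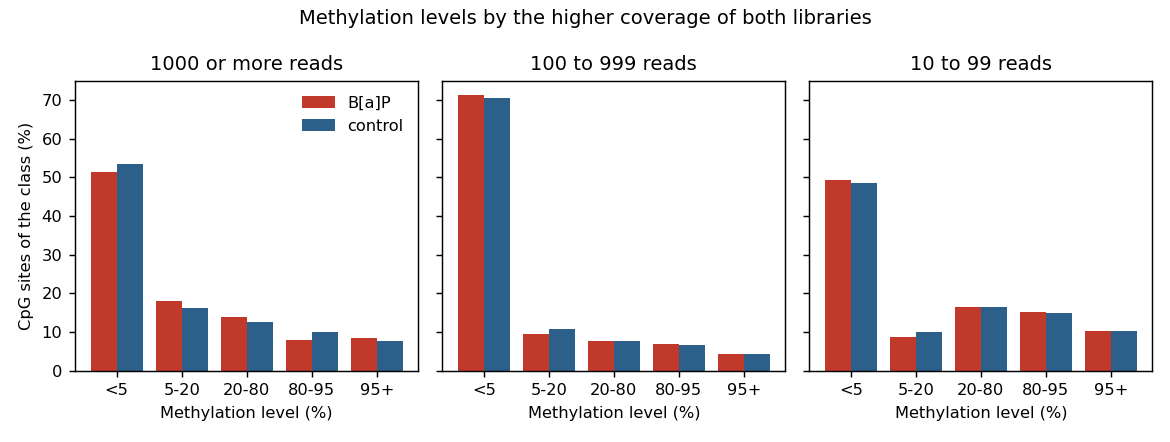
Share of nuclear CpG sites in 5 ranges of methylation level (x axis, percent) within 3 classes of coverage, the higher of both libraries, as bars for the B[a]P library (red) and the control library (blue), with the left-out chromosome 1 window excluded. In the class of 1000 or more reads, 51.3% of sites were under 5% in the B[a]P library and 53.6% in the control library, against 71.4% and 70.4% in the class of 100 to under 1000 reads.

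The shares of nearly unmethylated and partly methylated sites differed from those in the class of coverage just below. Of the 524601 sites whose higher coverage was 100 to under 1000 reads, 71.4% were under 5% in the B[a]P library and 70.4% in the control library, against 51.3% and 53.6% of the deep sites. Levels of 5% to under 20% were at 18.0% of deep sites in the B[a]P library and 16.3% in the control library, against 9.49% and 10.8% of the sites at 100 to under 1000 reads. Levels of 20% to under 80% were at 14% of deep sites in the B[a]P library and 12.6% in the control library, against 7.83% and 7.75% in that class. Over all nuclear CpG sites the last share was 12.7% in both libraries, close to that of the deep sites. Neighbouring sites share reads, so these shares describe few stretches and were not tested.

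Coverage differed between the libraries by amounts that the sites of a cluster mostly shared. Over all nuclear CpG sites the median ratio of B[a]P to control reads was 0.865, and ratios below are divided by it, so that 1 means the typical site. The deep sites had a median of 0.810, and ranged from 0.242 to 162. The ratio was 2 or more at 136 sites, 0.5 or less at 179, and between these at 501. The share beyond 2-fold was 38.6%, against 36.3% of all nuclear CpG sites and 28.4% of sites at 100 to under 1000 reads. Of the 68 clusters with 2 or more sites, 50 had a highest ratio within 1.2 times the lowest. Because a site could enter through either library, the rule itself favours unequal ratios near the threshold.

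**Figure D2:**
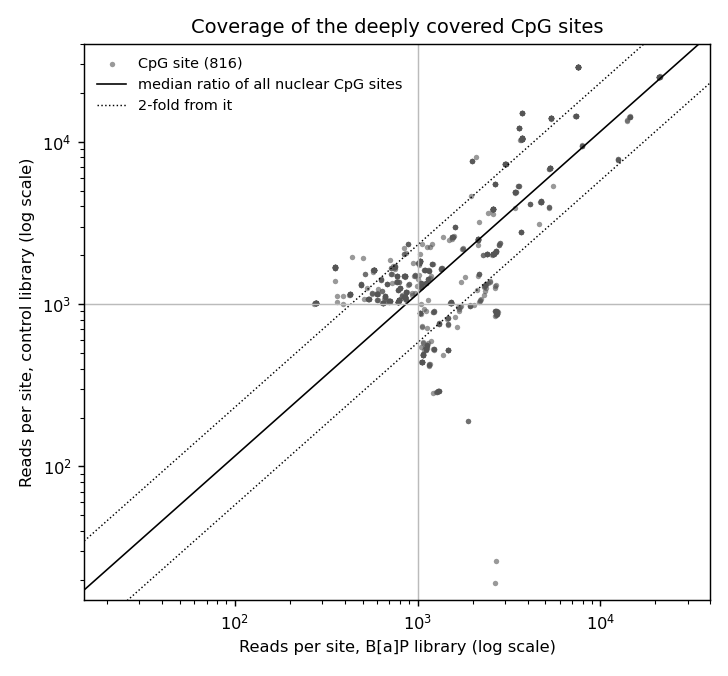
Reads per site in the B[a]P library (x axis) and the control library (y axis), both on log scales, for the 816 sites (points). The solid line is the median ratio of all nuclear CpG sites, 0.865, the dotted lines mark 2-fold from it, and the grey lines mark 1000 reads, below which on both axes no site could be chosen. The points fall in tight groups, 1 or more per cluster, and 2 sites of chromosome 14 lie at 26 and 19 control reads.

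Among clusters of 5 or more sites, the highest ratio was 5.14 at chr5:95176012-95176111, where 12 sites had 1221 to 1302 reads in the B[a]P library and 283 to 292 in the control library. It was 3.26 at chr9:11340708-11340774, 2.90 at chr13:95678231-95678378, 2.55 at chr9:7321533-7321660 and 2.49 at chr19:67048277-67048584. The lowest was 0.246 at chr20:6972523-6972622, where 16 sites had 351 to 354 reads in the B[a]P library and 1378 to 1682 in the control library. Next came 0.310 at chr1:13561023-13561064, 0.316 at chr1:281463559-281463678, 0.353 at chr1:13499480-13499955 and 0.429 at chr20:7410320-7410374. Ratios within a locus were far apart in some and close in others. The 6 clusters of the chromosome 20 locus ran from 0.246 to 0.884 and the 4 of the chromosome 14 locus from 0.740 to 2.30, while the pair at chr17:58672938-58708825 had 0.856 and 0.885 and the pair at chr1:13499480-13561064 had 0.353 and 0.310.

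A pair of sites at chr14:94142408-94142475, a cluster singled out after its values were seen, stood apart. They had 2693 and 2663 reads in the B[a]P library and 26 and 19 reads in the control library, a summed ratio of 138 times the typical site. The levels were 95.6% (95% Wilson interval 94.7% to 96.3%) and 97.0% (96.2% to 97.5%) in the B[a]P library, and 96.2% (81.1% to 99.3%) and 94.7% (75.4% to 99.1%) in the control library. The depths lay far apart here, while each B[a]P level lay within the interval of the control level.

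**Figure D3:**
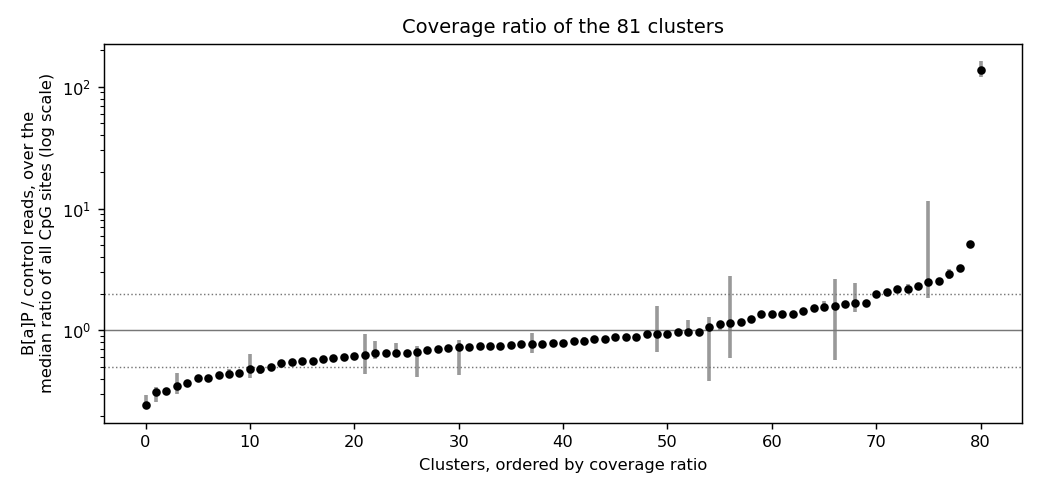
Ratio of B[a]P to control reads of the 81 clusters, ordered from low to high and divided by the median ratio of all nuclear CpG sites (log scale). Points are ratios of summed reads, grey bars the range over a cluster's sites, the solid line is 1 and the dotted lines are 2 and 0.5. A total of 54 clusters lie below 1 and 27 above, with 10 at 2 or more and 12 at 0.5 or less.

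Methylation levels were close between the libraries at most deep sites. The median difference, B[a]P minus control, was -0.05 percentage points. It was under 1 point in either direction at 531 sites and under 5 points at 707, or 86.6%. The latter share was 79.6% of all other nuclear CpG sites outside the left-out window, whose lower coverage carries more counting error. In the class of 100 to under 1000 reads it was 91.1%, so the deep sites were less often this close than the class just below. That class had a larger share of sites under 5%, where less difference is possible, and the deep sites come from few stretches. The level was higher in the B[a]P library at 369 sites and lower at 447. Across the 816 sites the levels of both libraries had a Pearson correlation of 0.990, given as a description since sites of a cluster share fragments.

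A 2-sided Fisher's exact test of methylated and unmethylated reads was run at all 1215420 CpG sites listed in both libraries, with Benjamini-Hochberg adjustment over all of them, and a site was called at an adjusted p under 0.05 and a difference of 25 points. No deep site was called higher, against 0.0691% of all CpG sites, and 5 were called lower (0.613%), against 0.0784% of all CpG sites. The 5 were neighbours in 1 cluster. At unadjusted p under 0.05, 100 deep sites were higher (12.3%, against 1.52% of all CpG sites) and 127 lower (15.6%, against 0.965%). With a difference of 10 points in place of 25, 14 deep sites in 2 clusters were called higher (1.72%, against 0.0852% of all CpG sites) and 28 sites in 9 clusters lower (3.43%, against 0.0969%). By adjusted p alone, 46 deep sites were higher (5.64%, against 0.0894% of all CpG sites) and 63 lower (7.72%, against 0.104%). Greater depth lets smaller differences pass, so these shares are not comparable at face value. When every site was scaled down to at most 100 reads per library, which still left the deep sites with more reads than most others, 0 deep sites were called higher at 10 points (0.0686% of all CpG sites) and 6 lower (0.735%, against 0.0781%).

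The 5 called sites span chr14:46742454-46742536. Position 46742492 was methylated in 21.3% of 783 reads in the B[a]P library (95% Wilson interval 18.6% to 24.3%) and in 65.1% of 1225 reads in the control library (62.4% to 67.8%). This difference of -43.8 points was the largest of any deep site (Fisher's exact test, adjusted p = 3.3e-81, lower in 1 library against 1). Position 46742536 was at 22.9% and 64.9%, position 46742454 at 27.1% and 68.6%, position 46742499 at 17.5% and 58.5%, and position 46742467 at 30.2% and 69.8%, each time in the B[a]P library and in the control library. All 5 sites differed alike, from -39.6 to -43.8 points, though sites of a cluster share reads. The summed level was 23.8% in the B[a]P library and 65.4% in the control library. The 27 non-CpG cytosines of this stretch were at 0.469% in the B[a]P library and 0.639% in the control library.

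**Figure D4:**
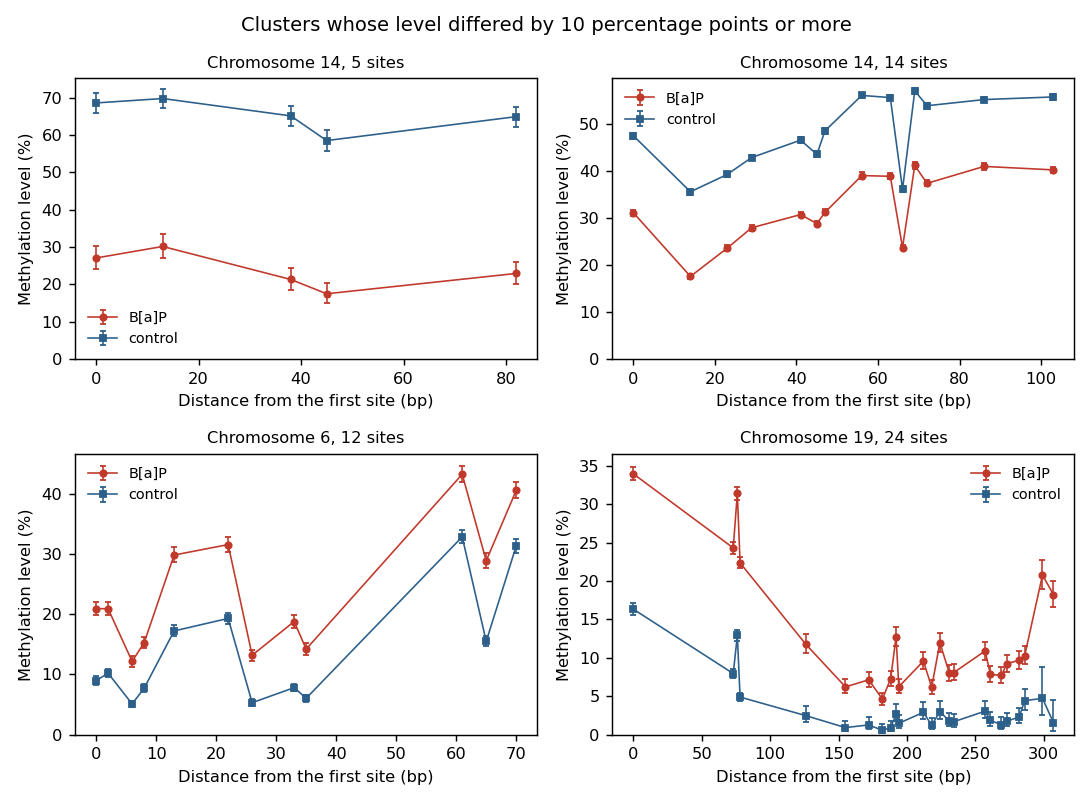
Methylation level (y axis, percent) of each site by its distance in bp from the first site of its cluster, for the 4 clusters whose summed level differed by 10 percentage points or more, in the B[a]P library (red circles) and the control library (blue squares). Bars are 95% Wilson intervals of counting error. In the panels of chromosomes 14 and 6 the libraries follow a similar shape along the sites, and in that of chromosome 19 they part at the last 2 sites, with the B[a]P library lower in both chromosome 14 clusters and higher in those of chromosomes 6 and 19.

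A second stretch lay at the other end of the same locus, which spans 92.3 kb, and was the deepest cluster of all in the B[a]P library. Its 14 sites at chr14:46834603-46834706 had 21000 to 21058 reads in the B[a]P library and 25062 to 25224 in the control library. All 14 were lower in the B[a]P library, by 12.4 to 18.0 points, with a summed level of 32.4% in the B[a]P library and 48.2% in the control library. The profile along the stretch was kept: position 46834617 was the lowest site in both libraries (17.6% in the B[a]P library and 35.7% in the control library) and position 46834672 the highest (41.3% and 57.2%).

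Between these lie a further pair of clusters. The 16 sites at chr14:46822746-46822927 were all lower in the B[a]P library, by 3.0 to 10.5 points, with summed levels of 47.9% in the B[a]P library and 54.6% in the control library, and 6 of them passed an adjusted p of 0.05 without a minimum difference. The opposite strand of the same CpGs, on 47 to 154 reads in the B[a]P library and 62 to 97 in the control library, went the other way: it was covered for 15 of the 16 and was higher in the B[a]P library at 14 of these, with summed levels of 54.1% in the B[a]P library and 38.7% in the control library. The 14 sites at chr14:46757607-46757848 stood at 17.7% in the B[a]P library and 19.7% in the control library, with differences from -3.85 to 0.28 points. The summed level of the deep sites was lower in the B[a]P library by 1.92 to 41.6 points among the 4 stretches, a direction that the opposite strand of 1 of them did not share.

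The B[a]P library had the higher summed level in 32 clusters and the lower in 49. At chr19:67048277-67048584 all 24 sites were higher, by 4.06 to 18.5 points. Its first 4 sites had 12408 to 12472 reads in the B[a]P library and 7767 to 7787 in the control library, and position 67048353 was at 31.4% (30.6% to 32.2%) in the B[a]P library and 12.9% (12.2% to 13.7%) in the control library. The other 20 sites were shallower and less methylated, 4.64% to 20.8% in the B[a]P library and 0.579% to 4.74% in the control library. Coverage differed most at the last sites, with 1887 reads in the B[a]P library and 190 in the control library at position 67048584. A difference in level stood beside a high coverage ratio here, whose part in it was not tested.

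At chr6:39271236-39271306 all 12 sites stood higher in the B[a]P library, by 7.06 to 13.4 points, at a coverage ratio of 0.890. Position 39271301 was at 28.9% (27.6% to 30.1%) in the B[a]P library and 15.5% (14.7% to 16.4%) in the control library, and the summed levels were 24.1% and 13.9%. The remaining clusters of 5 or more sites with the highest positive differences lay closer: chr7:736791-736852 stood at 18.5% in the B[a]P library and 14% in the control library, chr14:10433943-10434117 at 94.3% and 91.5%, and chr10:65679756-65679825 at 8.06% and 6.07%. At the last, the opposite strand of the 9 CpGs was lower in the B[a]P library at 8 and equal at 1, with summed levels of 4.50% in the B[a]P library and 15% in the control library, on at most 74 and 64 reads. At chr7:736791-736852 it was covered for 4 CpGs, at 14.2% in the B[a]P library and 20.4% in the control library, on at most 32 and 27 reads, and at chr14:10433943-10434117 for 5, at 68.1% in the B[a]P library and 68.8% in the control library.

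On the lower side, 2 more clusters differed by over 7 points. The 6 sites at chr7:1611798-1611913 stood at 11.1% in the B[a]P library and 19.1% in the control library. The 16 sites at chr1:13561023-13561064, about 61.6 kb past the start of the largest cluster and among the lowest coverage ratios, stood at 33.0% in the B[a]P library and 40.7% in the control library, and all 16 were lower, by 3.15 to 15.5 points. In 2 CpGs of that cluster the opposite strand was shallow, and it was higher in the B[a]P library at both. The cluster of 12 sites with the highest coverage ratio, at chr5:95176012-95176111, was lower at 11 sites and higher at its last, position 95176111, which stood at 51.1% in the B[a]P library and 39.5% in the control library and did not pass (Fisher's exact test, adjusted p = 0.151).

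The larger differences lay in partly methylated clusters. The summed level differed by 5 points or more in 8 clusters, all 8 of them among the 23 of intermediate level. Within those 23 the median absolute difference was 3.51 points and the largest 41.6. It was 0.163 points, at most 1.67, in the 30 unmethylated clusters, and 0.821 points, at most 2.89, in the 28 highly methylated ones. Levels near 0 or 100% leave less room for a difference, and the kinds of cluster were drawn from the same levels. In 13 of 52 clusters with 5 or more sites every site differed in the same direction, higher in 5 clusters and lower in 8. Sites of a cluster share reads, so such agreement, here and in the clusters above, is not repeated evidence.

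**Figure D5:**
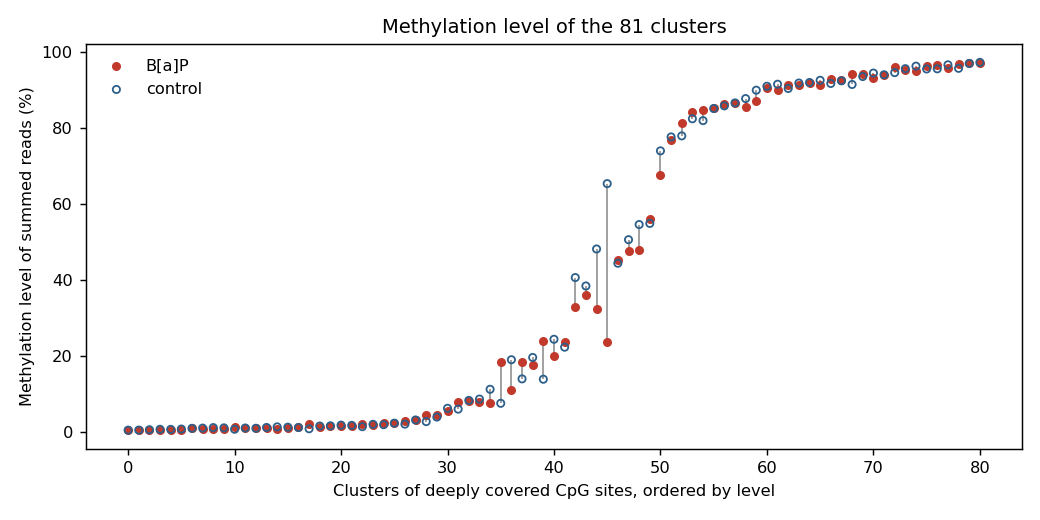
Methylation level from summed reads (y axis, percent) of the 81 clusters, ordered by the mean of both libraries, with the B[a]P library as filled red points, the control library as open blue points and a grey line joining them. The libraries nearly coincide at both ends, where 30 clusters lie under 5% and 28 at 80% or more, and separate in the middle, by up to 41.6 points.

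In a few clusters a lone site broke from its neighbours, examples that were picked after their values were seen. At chr2:166647362-166647415, position 166647407 was methylated in 72.9% of 3676 reads in the B[a]P library (71.4% to 74.3%) and 94.6% of 2776 in the control library (93.7% to 95.3%), the largest difference outside chromosome 14 at -21.7 points. Fisher's exact test gave an adjusted p of 3.6e-122 there, for 1 library against 1. Its 4 neighbours stood higher in the B[a]P library, by 0.24 to 8.39 points, on 3670 to 3676 reads of that library. At chr1:32415155-32415423, position 32415254 was at 17.1% in the B[a]P library and 32.9% in the control library, while the 22 sites of that cluster had summed levels of 85.2% in both. The opposite strand of that CpG, position 32415255, was at 80% of 40 reads in the B[a]P library and 62.5% of 112 reads in the control library, another level and the other direction. That cluster was also the most regular in spacing of the 38 clusters with 8 or more sites, a comparison added after the values were seen. Its 22 sites make up 12 CpG positions, most of them read on both strands, and all 11 steps from 1 position to the next measured 23 to 25 bp. Position 32415254 and the last, 32415423 (0.688% in the B[a]P library and 1.08% in the control library), were the only deep sites of the array under 90% in either library.

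Some deep stretches had a match in the spacing of their sites elsewhere on the same chromosome. For each of the 38 clusters with 8 or more sites, the pattern of distances between its sites was looked for among all nuclear CpG sites, in the same and in the reversed direction, with 90% of the sites required. A place was kept when at least 75% of all cytosines covered in either stretch lay at the same relative position in the same context (CpG, CHG or CHH). That minimum was set after the values were seen, at a gap in them: the places kept shared 77.4% to 98.1%, and the next highest shared 63.4%. Recurring patterns were found for 7 clusters, every time on the same chromosome.

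The clearest family was on chromosome 17. The 16 sites of chr17:58672938-58673021 recurred with the same spacing 35.8 kb away at chr17:58708742-58708825, with 94.3% of cytosines alike. Median coverage was 848 reads in the B[a]P library and 1109 in the control library for the first, and 789 and 1066 for the second, with summed levels of 0.479% and 0.536%, and 0.523% and 0.557%. The pattern was also at 3 other places of the chromosome that did not reach 1000 reads. These were chr17:45665882-45665965, at a median of 731 reads in the B[a]P library and 887 in the control library, chr17:45542571-45542654 in reversed direction, at 374 and 530 reads, and chr17:45482508-45482591, at 19 and 32 reads. Levels were 0.452% to 1.64% in the B[a]P library and 0.460% to 1.17% in the control library. Stretches alike in these cytosines were thus covered at a median of 19 to 848 reads in the B[a]P library and 32 to 1109 in the control library.

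On chromosome 20 the clusters at 6854860, 6997048 and 7011081 shared a pattern, with 77.4% to 85.5% of cytosines alike. All 3 were nearly unmethylated, at most 0.952% in the B[a]P library and 1.14% in the control library, and their coverage ratios were 0.481, 0.734 and 0.654. The 32-site cluster at chr13:94070976-94071111 recurred in reversed direction at chr13:95681034-95681169, with 92.7% of cytosines alike and 30 of 32 sites shared. That place lies next to the other large chromosome 13 clusters and had a median of 287 reads in the B[a]P library and 212.5 in the control library. The cluster at chr9:7414437-7414496 recurred at chr9:11340666-11340725, with 88.6% of cytosines alike and 9 of 10 sites shared. The matching sites had a median of 131 reads in the B[a]P library and 359 in the control library, and none was deep. That stretch overlaps the deep cluster at chr9:11340708-11340774, whose deep sites are not part of the match. The other 31 clusters that were searched had no such place among the covered sites, which says nothing of copies that are missing from the build or below 10 reads.

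Depth was often that of 1 strand. The cytosines of a CpG on opposite strands stand at neighbouring positions, and 362 pairs with at least 1 deep site had both positions covered and no further CpG next to them. In 67 of them both were deep. The deeper position had 7.48 times the reads of its partner as a median in the B[a]P library, against 11.6 times in the control library, and at most 228 and 263 times. Over all 289425 such pairs of nuclear CpG sites these medians were 1.66 and 2.06. The choice of deep sites favours unequal pairs and a shared deeper position, so nothing is read from these folds, nor from the 359 of 362 pairs (99.2%, against 85.6% of all pairs) with the same position deeper in both libraries. The median absolute difference in level between the strands was 0.997 points in the B[a]P library and 1.10 points in the control library. Many pairs lay in clusters near 0%, where little difference is possible, and some strands lay far apart. An example picked after its values were seen is chr4:244312453-244312887, counted above as under 5%. Its 2 pairs stood at 0.166% in the B[a]P library and 0.531% in the control library on the deep strand. Their partners, on at most 29 and 36 reads, stood at 94.6% and 89.4%.

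The shallower strand, also examined after the values were seen, was not chosen by the rule and gave a second reading of the differences between the libraries. A total of 295 pairs in 47 clusters had a deep site on 1 strand only. Among the 21 clusters with 5 or more such pairs, the summed levels of both strands differed in the same direction in 14. Some of these were near 0%, such as chr17:58708742-58708825, with differences of 0.003 points on the deep strand and 0.273 on the other. Pair by pair, the direction was the same at 132 of the 295, where a partner with equal levels in both libraries did not count as the same. At chr14:46834603-46834706, 11 of the 14 CpGs formed such a pair, and the opposite strand was lower in the B[a]P library at all 11. It stood at 35.8% in the B[a]P library (229 to 237 reads) and 71.1% in the control library (361 to 393 reads), against 32.1% and 47.9% on the deep strand of the same CpGs. At chr19:67048277-67048584 the opposite strand was higher in the B[a]P library at all 20 such pairs, with 9.82% in the B[a]P library and 2.94% in the control library. At chr14:46757607-46757848 it was lower at 11 of 13 pairs. The clusters at chr14:46742454-46742536, chr6:39271236-39271306 and chr7:1611798-1611913 had no such pair, so their differences rest on the deep sites alone.

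Cytosines outside CpG, which carry little methylation in most tissues and some in neurons, give a second readout that was not used in the choice. The clusters' spans held 2847 CHG and CHH cytosines covered in both libraries, in 67 clusters. Methylated reads made up 0.498% of their reads in the B[a]P library and 0.585% in the control library, against 0.646% and 0.665% over all 4410753 nuclear non-CpG cytosines. Across clusters the median was 0.359% in the B[a]P library and 0.412% in the control library, and the value was lower in the B[a]P library in 53 of 67. The highest was at chr14:10433943-10434117, with 4.0% in the B[a]P library and 5.10% in the control library. Incomplete conversion and true non-CpG methylation cannot be told apart in these values.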

How the data were processed

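RRBS libraries of hippocampal DNA, 1 per group, were analysed. The authors' deposited tables give, per the file headers, the count of methylated and of unmethylated reads at each cytosine and the level in percent, which equals the share of methylated reads. Every deposited cytosine had 10 reads or more. Per the submitters' processing notes, bcl2fastq was used, and the builds rn6 and rn5 are named without roles. Positions on chromosome 1 reach 290084085, past its end in rn6, so rn5 was taken. The aligner, the methylation caller and duplicate removal are not given in the sources used here, and each could change both depth and level. Whether the start column counts from 0 or 1 is not known.

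Tables were joined by position (5628789 cytosines, after 422 of differing context were left out) with Python 3.11.15, pandas 2.3.3, numpy 2.4.6 and numba 0.67.0. Fisher's exact test was checked against scipy 1.17.1 and on simulated reads. Summed levels pool all sites of a cluster, whose reads are not independent, so Wilson intervals (95%) are given for single sites. They cover counting error only, because reads without molecular identifiers are not independent molecules. Expression tables were not used.

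Sites and clusters named in the text are those with the most sites (10), the highest coverage (10 sites), the largest level differences and coverage ratios (5 clusters each way, of 5 or more sites) and the called sites. Exceptions are marked. The members and rules were chosen with earlier results of these data known. Alternatives covered the coverage threshold, the joining distance, the ratio's scale, the call rule, thinned reads and left-out clusters.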

Additional observations from a re-analysis of the deposited data

How the results depend on the processing

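No paired analysis was possible because each group had 1 library. At 500 reads in either library there were 9881 sites in 952 clusters, with median levels of 0.484% (B[a]P) and 0.532% (control). Of these, 7 sites were called higher and 7 lower, each 0.0708%, near the 0.0691% and 0.0784% of all CpG sites. At 2000 reads there were 330 sites in 29 clusters, with a median coverage ratio of 0.889, levels of 8.56% and 7.77%, and 0 called lower. With 1000 reads in both libraries there were 398 sites in 37 clusters, a control level of 5.57% and 0 called lower. With the chromosome 1 window the levels were 6.73% and 6.73%, and 54 of 998 sites were called lower (5.41%, against 0.0784% of all CpG sites). Without the cluster with the most sites they were 3.07% and 2.07%, and as 1 value per cluster 23.7% and 22.4%. The coverage ratio was 0.701 from reads as deposited and 0.899 over the ratio of summed reads.

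Calls higher and lower were 14 and 28 at 10 points and 46 and 63 by adjusted p alone. Without the 5-site chromosome 14 cluster, an alternative chosen after seeing the data, 0 were called lower. Joining within 100 bp gave non-CpG levels of 0.484% (B[a]P) and 0.569% (control). The cause of these shifts was not tested, beyond the sites that each setting adds or removes. The median level difference ranged from -0.20 to -0.03 points over its 7 alternatives. With 1 library per group, depth limits counting error only: at 1000 reads a site's level is precise for that library and says nothing of the spread between animals.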
